A study of Mus musculus with 9 samples.

Results

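Hearts of streptozotocin diabetic mice (DCM) were compared with hearts of control mice (CK) across all genes. The comparison used 6 of the 9 libraries of the series, namely CK replicates 1 to 3 and DCM replicates 1 to 3 of a table of read counts per gene. Libraries of any other treatment entered no step. All mice were male and of the C57BL/6 strain, in its C57BL/6J form. They were aged 6 to 8 weeks at the start and carried no named allele or transgene. DCM mice received a single intraperitoneal dose of streptozotocin, a toxin of the insulin-producing beta cells of the pancreas, of 180 mg per kg body weight. They were then kept on normal chow for 12 weeks. CK mice received the citrate buffer in which the drug was dissolved. Animals of both groups were fasted overnight and anesthetized with pentobarbital before the heart was taken at a time of day that was not stated. Whether a library came from a single heart or from a pool of hearts was described in different ways. The p-values below therefore measure the spread between these 3 libraries per group, which may be technical in part.

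The adult heart draws most of its ATP from fatty acids. Insulin lets cardiomyocytes take up and burn glucose, and restrains the release of fatty acids from adipose tissue. Without insulin, the heart receives more fatty acids and ketone bodies. Fatty acids act as ligands of the nuclear receptor PPAR-alpha, which drives the genes of fatty acid oxidation. Around the cardiomyocytes lies a stroma of fibroblasts, endothelial cells and smooth muscle cells that makes the collagen matrix, together with resident macrophages and a few lymphocytes. The question put to these libraries was which metabolic, contractile, stromal and immune programs differed in the diabetic heart.

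The libraries held 29901300 to 39718680 counts, of which the mitochondrially encoded genes took 13.7% to 16.2% in CK and 15.5% to 18.9% in DCM. Of 22851 genes in the table, 14402 had enough counts to be tested. Differentially expressed genes (DEGs) were called at an adjusted p under 0.05 and a fold change of at least 1.5 in the quasi-likelihood test of edgeR, adjusted by Benjamini-Hochberg over all genes tested. There were 625 DEGs (4.34% of genes tested), 292 upregulated (2.03%) and 333 downregulated (2.31%) in DCM. Since abundant metabolic genes can move by less than that fold, members of gene lists were also counted at the adjusted p alone. At that limit 1497 genes changed (10.4%), of which 761 rose (5.28%) and 736 fell (5.11%). For 4217 genes (29.3%) the 3 DCM libraries lay entirely above or entirely below the 3 CK libraries, with 2096 (14.6%) above and 2121 (14.7%) below. These shares are the background against which each list is read. Levels are given as CPM, counts per 1000000 counts of the library, with library sizes scaled by TMM. Changes are given as the log2 fold change of DCM relative to CK ± its standard error. The count past the adjusted p depended on single libraries, being 817 without CK replicate 2, 866 without DCM replicate 2 and 966 without DCM replicate 3. Tested on log2(FPKM + 0.1) (counts scaled by gene length and library total) with limma, without scaling to a common median, 33.5% of DEGs were higher in DCM against 46.7% in the count test. At the adjusted p alone the shares were 29.3% and 50.8%. The median log2 fold change of all genes was -0.09 on that scale and -0.0025 in the count test.

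**Figure D1:**
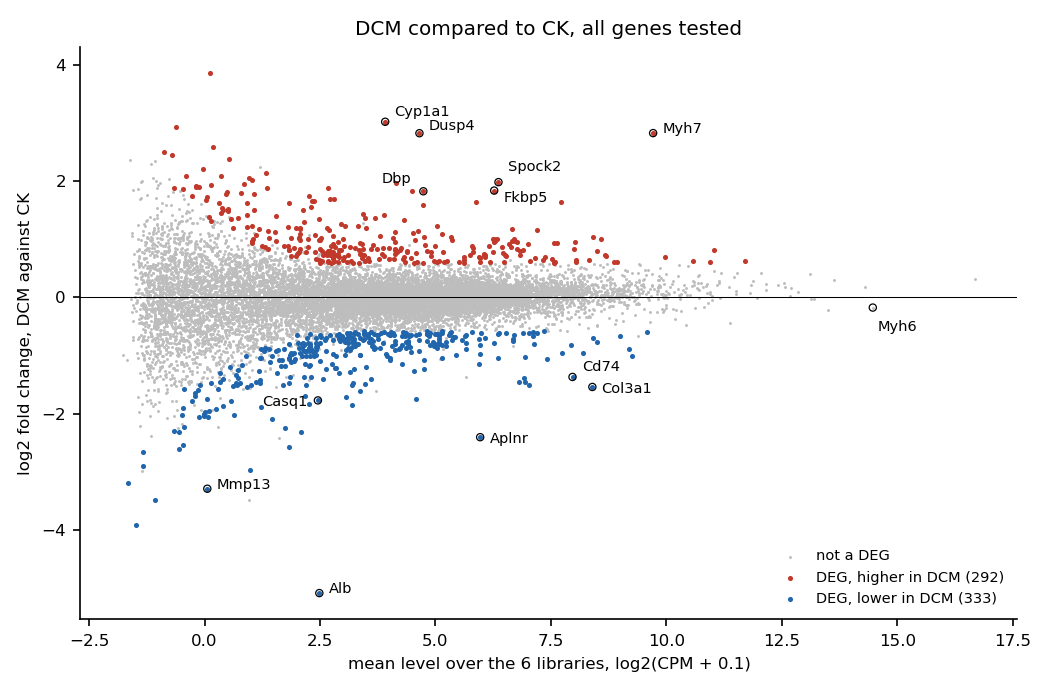
Mean expression of each gene tested, as log2 of CPM plus 0.1 (x axis), and its log2 fold change in DCM relative to CK (y axis). Each point is a gene, and coloured points are DEGs, 292 above and 333 below 0. A reader should see DEGs on both sides of 0 over most of the range of expression, with Myh7 (2.82) and Col3a1 (-1.54) among those at high levels.

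The tissue was checked first, because the text on RNA extraction in the labels speaks of retina while the tissue label is heart. The 9 cardiomyocyte identity genes measured together held 48167 to 53536 CPM in CK and 46675 to 53223 CPM in DCM, and none passed the adjusted p of edgeR (2 at an unadjusted p under 0.05 and 2 by DESeq2). The 13 photoreceptor genes measured, of which 3 had enough counts to be tested, together held 19.6 to 22.7 CPM in CK and 19.9 to 21.3 CPM in DCM. Nearly all of that was Rom1. Markers of blood, fat and liver were also examined. The 8 erythroid genes measured, 7 of them tested, summed to 1598 to 3735 CPM in CK and 1378 to 3385 CPM in DCM. None passed the adjusted p of edgeR (0 at an unadjusted p under 0.05 and 0 by DESeq2), with 1 call without CK replicate 3 or DCM replicate 2, and 2 calls without DCM replicate 1. Of 10 adipocyte genes tested (12 measured), 1 rose and none fell at the adjusted p, while 9 were lower in DCM on average. Of 4 liver genes tested (15 measured), 1 rose and 1 fell. CK replicate 2 had the highest levels of a liver and a fat marker. Alb, the plasma protein albumin, was at 2.42, 28.6 and 1.08 CPM in CK and 0.357, 0.309 and 0.267 CPM in DCM. Adipoq, the adipocyte hormone adiponectin, was at 1.78, 13.4 and 5.25 CPM in CK and 3.11, 3.12 and 1.43 CPM in DCM, and passed as lower in DCM without CK replicate 1 (adjusted p = 0.0030) or with no filter on low counts (adjusted p = 4.6e-07). The fall of Alb (log2 fold change -5.09 ± 1.09, adjusted p = 0.011) is the largest of all DEGs named here, and the call was lost without DCM replicate 2 or 3 (adjusted p = 0.061) and with limma on FPKM. With CK replicate 2 left out, its log2 fold change was -2.48 (adjusted p = 0.018).

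**Figure D2:**
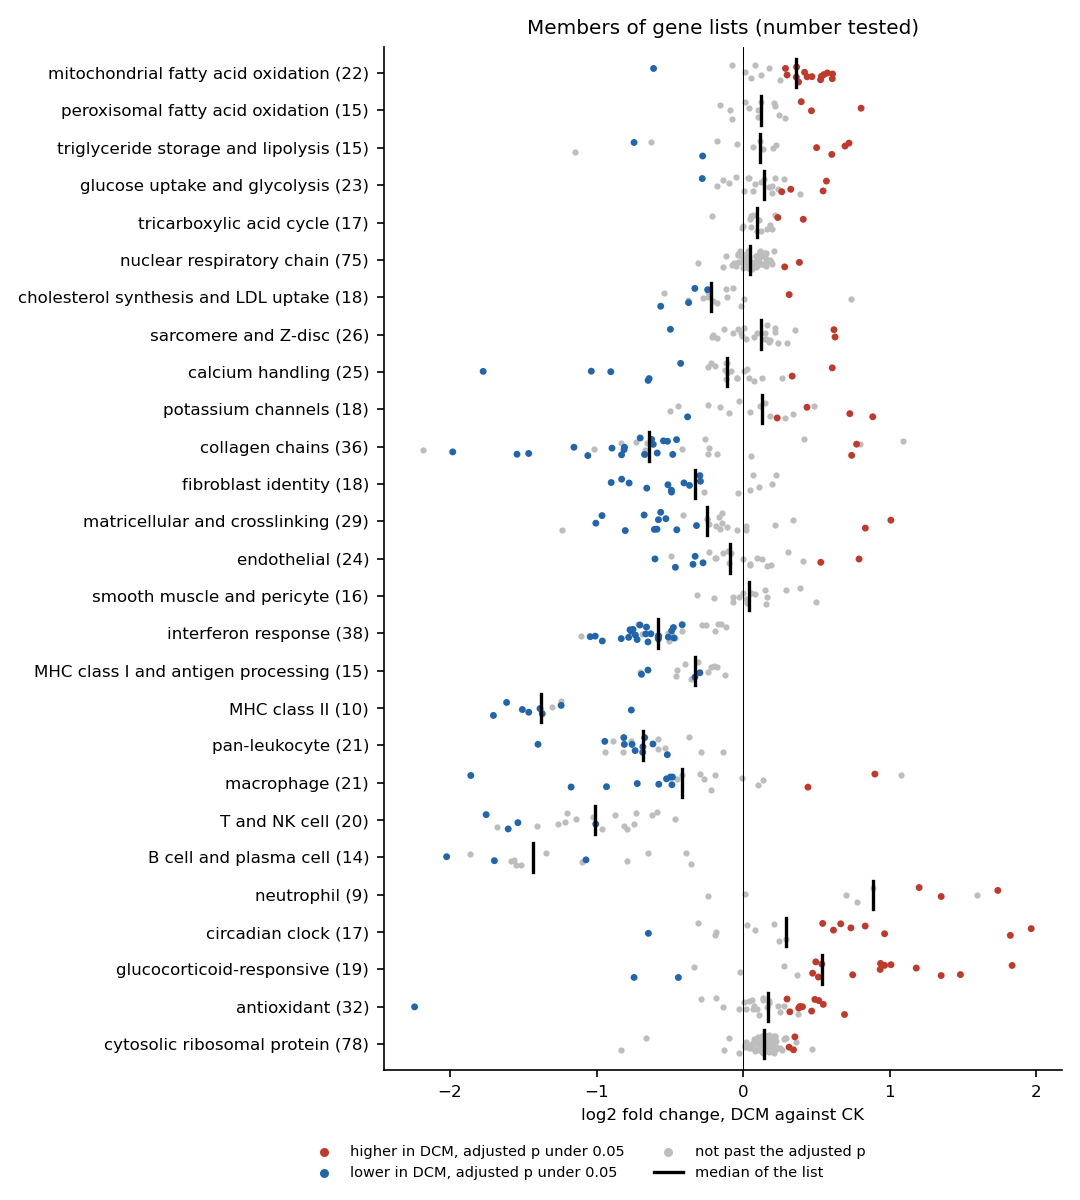
Log2 fold change in DCM relative to CK (x axis) of each tested member (points) of gene lists (y axis, with the number tested), with a black line at the median of each list. Red (higher in DCM) and blue (lower) points passed the adjusted p, and grey points did not. A reader should see 14 of 22 genes of mitochondrial fatty acid oxidation past the adjusted p on the upregulated side, and 18 of 36 collagen chains and 23 of 38 interferon response genes on the downregulated side.

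Genes of fatty acid oxidation were upregulated together in the diabetic heart. Of 22 genes of mitochondrial fatty acid oxidation tested, 14 rose, 1 fell and 7 did not pass the adjusted p, against 10.4% of all genes. The median log2 fold change of the list was 0.36. The summed level of the list was 12090 to 12863 CPM in CK and 15433 to 16432 CPM in DCM, so the groups did not overlap. The changes were small in fold and included the carnitine shuttle and the steps of the cycle. Cpt1a, which loads long-chain fatty acids onto carnitine at the outer mitochondrial membrane, was at 137, 135 and 151 CPM in CK and 204, 214 and 211 CPM in DCM (log2 fold change 0.57 ± 0.07, adjusted p = 0.00032). Slc25a20, the carrier that brings acylcarnitines across the inner membrane, was at 233, 227 and 233 CPM in CK and 319, 352 and 329 CPM in DCM (log2 fold change 0.53 ± 0.07, adjusted p = 0.00052). Both were above CK in every DCM library. The acyl-CoA dehydrogenases Acadvl and Acadl, which take the first step of each cycle on very long and long chains, rose by log2 fold changes of 0.47 ± 0.07 and 0.55 ± 0.08. Hadha and Hadhb, the subunits of the trifunctional protein, and Acaa2, the last thiolase, rose by 0.42 ± 0.08, 0.38 ± 0.08 and 0.53 ± 0.07. Decr1, which is needed for unsaturated chains, was at 373, 390 and 399 CPM in CK and 579, 571 and 624 CPM in DCM (log2 fold change 0.61 ± 0.07, adjusted p = 0.00026). Acot2, a thioesterase that frees fatty acids inside mitochondria, was at 152, 146 and 154 CPM in CK and 221, 241 and 226 CPM in DCM (log2 fold change 0.61 ± 0.07, adjusted p = 0.00018). Again no DCM library fell within the CK range for either gene. Against this direction, Ucp3, a carrier of the inner mitochondrial membrane often induced by fatty acids, was lower in each DCM library, at 175, 191 and 164 CPM in CK and 125, 122 and 99.6 CPM in DCM (log2 fold change -0.61 ± 0.09, adjusted p = 0.0015).

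Steps before and beside the mitochondrion moved as well, with 4 of 12 genes of fatty acid uptake and activation higher and 1 lower (2 calls without CK replicate 2 or DCM replicate 2, and 3 calls without DCM replicate 3). Slc27a1, a transporter and activator of long-chain fatty acids at the cell surface, was at 306, 303 and 336 CPM in CK and 486, 551 and 500 CPM in DCM (log2 fold change 0.70 ± 0.08, adjusted p = 0.00017). Cd36, the main fatty acid translocase of the heart, was at 1430, 1485 and 1609 CPM in CK and 1581, 1829 and 1959 CPM in DCM and did not pass the adjusted p (log2 fold change 0.25 ± 0.09, adjusted p = 0.11), though it did without DCM replicate 1 (adjusted p = 0.039). In peroxisomes, 3 of 15 genes rose and none fell. Ech1, an isomerase of unsaturated acyl-CoAs, led them at 1499, 1502 and 1552 CPM in CK and 2673, 2776 and 2504 CPM in DCM (log2 fold change 0.80 ± 0.07, adjusted p = 5.0e-05). Of 15 genes of triglyceride storage and lipolysis, 4 rose and 2 fell. Pnpla2, the triglyceride lipase ATGL, was at 817, 731 and 737 CPM in CK and 1232, 1304 and 1162 CPM in DCM (log2 fold change 0.69 ± 0.08, adjusted p = 0.00019). The droplet coat proteins Plin4 and Plin5 rose by 0.72 ± 0.09 and 0.60 ± 0.09. Angptl4, a secreted inhibitor of lipoprotein lipase and a classical PPAR target, went the other way, at 141, 135 and 108 CPM in CK and 86, 67.9 and 75 CPM in DCM (log2 fold change -0.74 ± 0.11, adjusted p = 0.0010). Lpl, the lipase itself, was at 2493, 2981 and 3134 CPM in CK and 2972, 2812 and 3200 CPM in DCM (log2 fold change 0.06 ± 0.10, adjusted p = 0.75). The groups were separate for Angptl4 and overlapped for Lpl.

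Of the genes of ketone body use, Oxct1 fell from 894, 892 and 1003 CPM in CK to 547, 655 and 634 CPM in DCM (log2 fold change -0.60 ± 0.09, adjusted p = 0.0010), with separate groups. Acat1, which acts in both the making and the use of ketone bodies, was at 599, 591 and 664 CPM in CK and 636, 748 and 716 CPM in DCM (log2 fold change 0.18 ± 0.08, adjusted p = 0.21).

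Genes of glucose use moved by small amounts. Of 23 genes of glucose uptake and glycolysis, 4 rose and 1 fell, but single libraries mattered, with 1 call without CK replicate 2, 2 calls without CK replicate 3 or DCM replicate 3, and 3 calls without DCM replicate 1 or 2. Slc2a4, the insulin-responsive glucose transporter GLUT4, was at 420, 381 and 397 CPM in CK and 364, 369 and 357 CPM in DCM, lower in every DCM library by a margin that did not pass the adjusted p (log2 fold change -0.14 ± 0.07, adjusted p = 0.25). Pdk4 and Pdk1 encode kinases that shut off pyruvate dehydrogenase. Pdk4, the abundant one, fell from 2840, 3242 and 3112 CPM in CK to 2197, 2300 and 2272 CPM in DCM (log2 fold change -0.44 ± 0.08, adjusted p = 0.0037). Pdk1 was higher in each DCM library, at 208, 205 and 217 CPM in CK and 256, 297 and 309 CPM in DCM (log2 fold change 0.45 ± 0.08, adjusted p = 0.0040). Pdha1, a subunit of the dehydrogenase that they inhibit, was at 844, 821 and 906 CPM in CK and 848, 991 and 942 CPM in DCM (log2 fold change 0.11 ± 0.08, adjusted p = 0.43). Acacb, which makes the malonyl-CoA that restrains carnitine palmitoyltransferase, rose by 0.39 ± 0.08, and Mlycd, which degrades malonyl-CoA, rose by 0.36 ± 0.07.

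Few genes downstream of these pathways passed. Of 17 genes of the tricarboxylic acid cycle, 2 rose, with 0 calls without CK replicate 2, and 1 call without CK replicate 1 or 3 or DCM replicate 1, 2 or 3. Of 75 nuclear genes of the respiratory chain, 2 rose and none fell, with 0 calls without CK replicate 2, and 1 call without CK replicate 1 or 3 or DCM replicate 1 or 2, and the median was 0.05. None of 12 mitochondrially encoded genes passed in edgeR (3 at an unadjusted p under 0.05 and 2 by DESeq2), with 1 call without CK replicate 1 or DCM replicate 1, and 2 calls without DCM replicate 2. None of 18 genes of branched-chain amino acid breakdown passed either (2 at an unadjusted p under 0.05 and 2 by DESeq2), with 1 call without DCM replicate 3. The mitochondrial share of counts was 15.1% ± 1.24 in CK and 17.1% ± 1.74 in DCM (SD, n = 3 each; two-sided exact permutation test, p = 0.2). In the list of cholesterol synthesis and LDL uptake, 4 of 18 genes fell and 1 rose, but there were 0 calls without CK replicate 2 or DCM replicate 2, 1 call without DCM replicate 1, 2 calls without CK replicate 3 or DCM replicate 3, and 3 calls without CK replicate 1. Of 15 nuclear receptors and coactivators of metabolism, 5 rose and 1 fell (3 calls without DCM replicate 3). Ppara, which encodes PPAR-alpha itself, was at 24.2, 21.9 and 31.9 CPM in CK and 37.7, 37.6 and 43.6 CPM in DCM (log2 fold change 0.61 ± 0.13, adjusted p = 0.0088), and Ppargc1b, a coactivator of mitochondrial genes, rose by 0.47 ± 0.09. Among insulin and FoxO genes, 5 of 20 rose and 1 fell. Pik3r1, the regulatory subunit of phosphoinositide 3-kinase, was at 66.3, 69.3 and 87 CPM in CK and 118, 142 and 170 CPM in DCM (log2 fold change 0.95 ± 0.13, adjusted p = 0.00061). Eif4ebp1, a brake on translation that FoxO factors induce, was at 162, 145 and 150 CPM in CK and 228, 253 and 216 CPM in DCM (log2 fold change 0.61 ± 0.08, adjusted p = 0.00048). For both, all DCM libraries were above all CK libraries.

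**Figure D3:**
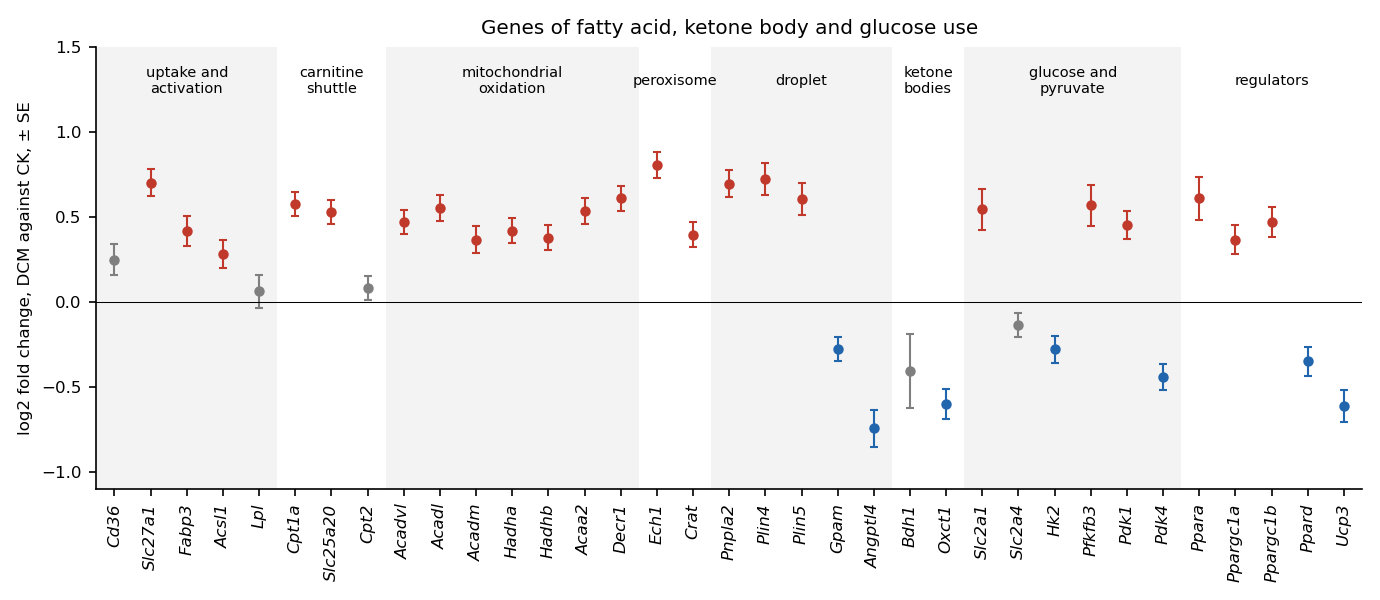
Log2 fold change in DCM relative to CK with its standard error (y axis) for metabolic genes ordered by the step at which they act (x axis). Coloured points passed the adjusted p and grey points did not. A reader should see small rises along fatty acid oxidation, and falls of Oxct1, Pdk4, Ucp3 and Angptl4.

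In the contractile program, 1 gene stood out. Myh7 (chr14:54970684-54994626, minus strand, GRCm38) encodes the slow beta-myosin heavy chain, which the mouse heart uses before birth and again under load or low thyroid hormone. It was at 276, 130 and 218 CPM in CK and 1206, 1936 and 1271 CPM in DCM, with no overlap (log2 fold change 2.82 ± 0.24, adjusted p = 2.5e-05). Its neighbour Myh6 (chr14:54941921-54966927, minus strand) encodes the fast alpha-myosin of the adult mouse heart and was at 23113, 22981 and 26161 CPM in CK and 19067, 24070 and 20768 CPM in DCM (log2 fold change -0.18 ± 0.10, adjusted p = 0.30). Because both genes are close copies of each other, reads could have been split between them in counting. On FPKM, which allows levels of different genes to be compared, Myh6 was at 4061 ± 256 in CK and 3371 ± 349 in DCM, and Myh7 at 34.4 ± 12.1 and 228 ± 59.4 (SD, n = 3 each). Myh7 made up 1.16%, 0.551% and 0.809% of the sum of both in CK and 5.84%, 7.32% and 5.66% in DCM. The share was 5.43 percentage points higher in DCM (two-sided exact permutation test, p = 0.1, the smallest that 3 against 3 libraries can give). Myh6 was the main myosin in all libraries.

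Other sarcomere genes were close to their CK levels. Of 26 genes of the sarcomere and Z-disc, 2 rose and 1 fell (5 calls without CK replicate 1). Myom2, an M-band protein, was at 2619, 2505 and 2816 CPM in CK and 3584, 4504 and 4113 CPM in DCM (log2 fold change 0.62 ± 0.09, adjusted p = 0.0013). Tcap, which caps titin at the Z-disc, was at 1204, 1107 and 1306 CPM in CK and 1866, 1896 and 1824 CPM in DCM (log2 fold change 0.63 ± 0.08, adjusted p = 0.00042). Both exceeded CK in every DCM library. Mylk4, a myosin light chain kinase of the heart, was at 135, 139 and 139 CPM in CK and 93.3, 92 and 108 CPM in DCM (log2 fold change -0.50 ± 0.08, adjusted p = 0.0015). The natriuretic peptides Nppa and Nppb, used as markers of cardiac strain, were at 581, 352 and 493 CPM in CK and 305, 460 and 528 CPM in DCM, and at 227, 137 and 117 CPM in CK and 162, 168 and 167 CPM in DCM. Neither passed the adjusted p (0.71 and 0.92), and the groups overlapped for both. Nppb passed as higher in DCM without CK replicate 1 (adjusted p = 0.013).

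Of 25 calcium handling genes, 6 fell and 2 rose, with a median of -0.11 (-0.06 without CK replicate 3 or DCM replicate 1). Atp2a2, the SERCA2 pump that refills the sarcoplasmic reticulum, was at 11863, 12234 and 13105 CPM in CK and 9633, 11648 and 10687 CPM in DCM, below CK in each DCM library without passing the adjusted p (log2 fold change -0.22 ± 0.09, adjusted p = 0.15, and 0.048 without DCM replicate 2). Ryr2, the calcium release channel, was at 1223, 1323 and 1599 CPM in CK and 994, 1232 and 1287 CPM in DCM (log2 fold change -0.24 ± 0.12, adjusted p = 0.22). Among those that fell, Srl, the calcium-binding protein sarcalumenin, was at 925, 875 and 941 CPM in CK and 637, 723 and 680 CPM in DCM (log2 fold change -0.43 ± 0.08, adjusted p = 0.0040). The T-type calcium channels moved apart: Cacna1g fell by 0.64 and Cacna1h rose by 0.61 on the log2 scale (adjusted p = 0.0010 and 0.0017). Several of the larger falls were in genes that also mark other muscle. Casq1, the calsequestrin of skeletal muscle, was at 9.01, 7.44 and 8.57 CPM in CK and 2.65, 1.89 and 2.73 CPM in DCM (log2 fold change -1.77 ± 0.19, adjusted p = 0.00012). Sln, an inhibitor of SERCA expressed mainly in atria, was at 177, 131 and 184 CPM in CK and 47.5, 91 and 102 CPM in DCM (log2 fold change -1.04 ± 0.22, adjusted p = 0.0096). Myl4, the atrial essential light chain, was at 398, 309 and 448 CPM in CK and 127, 224 and 242 CPM in DCM (log2 fold change -0.96 ± 0.20, adjusted p = 0.0084). The atrial genes measured summed to 1404 to 1824 CPM in CK and 839 to 1404 CPM in DCM. Of 12 tested, 11 were lower in DCM on average (median -0.32), 3 of them at the adjusted p. Nppa, which is on this list too, overlapped. In bulk tissue, fewer cells of a type and less RNA per cell cannot be told apart. How much atrium each sample held was not tested. Of 10 skeletal muscle genes, 3 fell, among them Myl1 (log2 fold change -1.23 ± 0.13, adjusted p = 0.00013).

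Channel genes that set the action potential changed in both directions. Kcnj12, an inward rectifier of the resting potential, was at 21.7, 21.2 and 24.2 CPM in CK and 39.2, 42.9 and 41.7 CPM in DCM (log2 fold change 0.88 ± 0.09, adjusted p = 6.7e-05). Kcnh2, which carries the rapid delayed rectifier current, was at 89.96, 82.1 and 83.2 CPM in CK and 134, 155 and 134 CPM in DCM (log2 fold change 0.73 ± 0.08, adjusted p = 0.00014). Kcnj11, the pore of the ATP-sensitive channel, rose by 0.44 ± 0.07. In all, 4 of 18 potassium channel genes rose and 1 fell. Scn4b, a beta subunit of voltage-gated sodium channels, was at 40.8, 37.1 and 38.8 CPM in CK and 56.3, 63 and 56.6 CPM in DCM (log2 fold change 0.59 ± 0.08, adjusted p = 0.00052). Hcn2, a pacemaker channel, was at 46.2, 41.4 and 40.8 CPM in CK and 27.8, 27.9 and 28.4 CPM in DCM (log2 fold change -0.61 ± 0.08, adjusted p = 0.00052). None of these channel genes overlapped between groups. Of 22 adrenergic and cAMP genes, 4 rose and 1 fell (2 calls without CK replicate 2 or DCM replicate 2, and 3 calls without CK replicate 3 or DCM replicate 3), including the cyclases Adcy5 (0.36 ± 0.07) and Adcy6 (0.49 ± 0.08). Of 9 thyroid hormone genes, 2 fell and 1 rose (1 call without CK replicate 2 or DCM replicate 2 or 3). Hr, a corepressor gene induced by thyroid hormone, was at 29.9, 26.2 and 28.1 CPM in CK and 16.7, 16.4 and 13.3 CPM in DCM (log2 fold change -0.86 ± 0.11, adjusted p = 0.00033). Klf9, a transcription factor that thyroid hormone and glucocorticoids induce, rose, at 68.6, 94.5 and 109 CPM in CK and 140, 122 and 127 CPM in DCM (log2 fold change 0.51 ± 0.13, adjusted p = 0.026), and the call was lost without CK replicate 2 or DCM replicate 1, 2 or 3 (adjusted p = 0.062 to 0.089) and with limma on FPKM. Thra, which encodes the main thyroid hormone receptor of the heart, was at 187, 180 and 192 CPM in CK and 219, 208 and 199 CPM in DCM (log2 fold change 0.16 ± 0.07, adjusted p = 0.17).

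The stroma of the diabetic heart was marked by lower collagen transcripts. Of 36 collagen chains tested (43 measured), 18 fell and 2 rose, against 5.11% and 5.28% of all genes, and the median log2 fold change was -0.64. Their summed level was 3438 to 3677 CPM in CK and 1874 to 1949 CPM in DCM. The falls included fibrillar, basement membrane and microfibrillar chains. Col3a1, the fibrillar chain of collagen III (chr1:45311538-45349706), was at 512, 505 and 489 CPM in CK and 190, 159 and 167 CPM in DCM (log2 fold change -1.54 ± 0.08, adjusted p = 8.8e-07). Col1a1 and Col1a2, the chains of collagen I, fell by 1.06 and 0.81 on the log2 scale. Col4a1, the main chain of vascular basement membranes, was at 810, 740 and 720 CPM in CK and 395, 419 and 406 CPM in DCM (log2 fold change -0.89 ± 0.08, adjusted p = 2.0e-05), and its partner Col4a2 fell by 0.67. Col15a1, which links basement membranes to the matrix, was at 173, 162 and 157 CPM in CK and 62.1, 57.4 and 59 CPM in DCM (log2 fold change -1.46 ± 0.07, adjusted p = 6.8e-07). Col6a3, of the microfibrillar collagen VI, was at 87.5, 83 and 84.9 CPM in CK and 36.7, 38.8 and 39.2 CPM in DCM (log2 fold change -1.15 ± 0.07, adjusted p = 2.4e-06). In each case the highest DCM library lay well below the lowest CK library. Both chains that rose, Col13a1 (0.77 ± 0.19) and Col23a1 (0.74 ± 0.17), are membrane-bound and were at low levels. For Col13a1 the call was lost without CK replicate 3 or DCM replicate 1, 2 or 3 (adjusted p = 0.053 to 0.074), and for Col23a1 the call was lost without CK replicate 2 or DCM replicate 1 (adjusted p = 0.059 to 0.066) and with limma on FPKM.

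Genes of proteins that fold, crosslink and organize collagen were mostly lower among those past the adjusted p. Sparc, a collagen-binding glycoprotein, was at 876, 804 and 783 CPM in CK and 422, 407 and 398 CPM in DCM (log2 fold change -1.01 ± 0.07, adjusted p = 1.1e-05). Serpinh1, the collagen chaperone HSP47, was at 299, 260 and 284 CPM in CK and 145, 154 and 134 CPM in DCM (log2 fold change -0.96 ± 0.08, adjusted p = 2.0e-05). Postn, a matrix protein of activated fibroblasts, was at 49.4, 49.2 and 54.8 CPM in CK and 34.4, 29 and 32.5 CPM in DCM (log2 fold change -0.68 ± 0.09, adjusted p = 0.00043). Of 29 matricellular and crosslinking genes, 11 fell and 2 rose. The oxidases Loxl1 and Loxl2 fell by 0.56 and 0.80, while the related Lox rose by 0.83 ± 0.16. Thbs2, a matricellular inhibitor of angiogenesis, also rose, at 54.5, 51.6 and 45.4 CPM in CK and 95.9, 107 and 102 CPM in DCM (log2 fold change 1.01 ± 0.08, adjusted p = 1.9e-05). For Lox and Thbs2 the DCM libraries were all above CK. Proteases were divided as well, with 7 of 18 lower and 3 higher. Mmp2, the gelatinase of fibroblasts, was at 190, 157 and 161 CPM in CK and 125, 115 and 115 CPM in DCM (log2 fold change -0.52 ± 0.08, adjusted p = 0.0022). The stromelysin gene Mmp3 was at 4.88, 6.53 and 7.26 CPM in CK and 16, 15.3 and 16.6 CPM in DCM (log2 fold change 1.36 ± 0.15, adjusted p = 0.00014).

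Fibroblast identity genes were also lower. Of 18 tested, 11 fell, none rose and 7 did not pass, with a median of -0.33, and their summed level overlapped at 5499 to 5763 CPM in CK and 5297 to 5924 CPM in DCM. Pi16, a marker of adventitial fibroblasts, was at 110, 95.1 and 85.2 CPM in CK and 54.7, 56.7 and 57.7 CPM in DCM (log2 fold change -0.78 ± 0.09, adjusted p = 0.00021). Meox1, a transcription factor of fibroblast activation, was at 25.3, 22.8 and 20.1 CPM in CK and 12.9, 10.7 and 13 CPM in DCM (log2 fold change -0.90 ± 0.12, adjusted p = 0.00052). Dcn, the proteoglycan decorin and a common fibroblast marker, was at 760, 783 and 873 CPM in CK and 790, 757 and 806 CPM in DCM (log2 fold change -0.04 ± 0.08, adjusted p = 0.82), and Gsn at 3655, 3445 and 3462 CPM in CK and 3644, 4025 and 3420 CPM in DCM (log2 fold change 0.07 ± 0.08, adjusted p = 0.66). The last pair overlapped between groups. Of 21 genes of TGF-beta and activin signalling, 3 rose and 2 fell (2 calls without CK replicate 2 or DCM replicate 2, and 3 calls without CK replicate 1 or 3 or DCM replicate 1 or 3), including Fstl1, a secreted follistatin-like protein, at 163, 155 and 152 CPM in CK and 113, 100 and 95.5 CPM in DCM (log2 fold change -0.61 ± 0.08, adjusted p = 0.00042). None of 16 smooth muscle and pericyte genes passed the adjusted p of edgeR (2 at an unadjusted p under 0.05 and 1 by DESeq2), with 2 calls without CK replicate 3.

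The endothelium was mixed, with 5 of 24 marker genes lower and 2 higher. Cdh5 and Pecam1, the junction proteins that define endothelial cells, were at 615, 533 and 513 CPM in CK and 501, 578 and 493 CPM in DCM, and at 438, 391 and 413 CPM in CK and 494, 456 and 439 CPM in DCM, and neither passed. Bcl6b, an endothelial transcription factor, was at 51.8, 50.2 and 44.6 CPM in CK and 31.1, 33 and 32.5 CPM in DCM (log2 fold change -0.60 ± 0.08, adjusted p = 0.00060). Vwf, von Willebrand factor, was at 268, 252 and 278 CPM in CK and 563, 454 and 364 CPM in DCM (log2 fold change 0.79 ± 0.13, adjusted p = 0.0019). Aplnr, the apelin receptor of sprouting and venous endothelium (chr2:85136225-85139923), was at 134, 98.9 and 82.5 CPM in CK and 25.1, 16.2 and 18 CPM in DCM (log2 fold change -2.41 ± 0.18, adjusted p = 1.1e-05). Apln, which encodes its ligand apelin, was at 18, 17.6 and 16.8 CPM in CK and 6.4, 7.1 and 6.24 CPM in DCM (log2 fold change -1.41 ± 0.11, adjusted p = 1.8e-05). Ligand and receptor were each lower in all DCM libraries. For Aplnr this was a condition for naming it among the largest changes, and Apln was named after its values were seen.

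**Figure D4:**
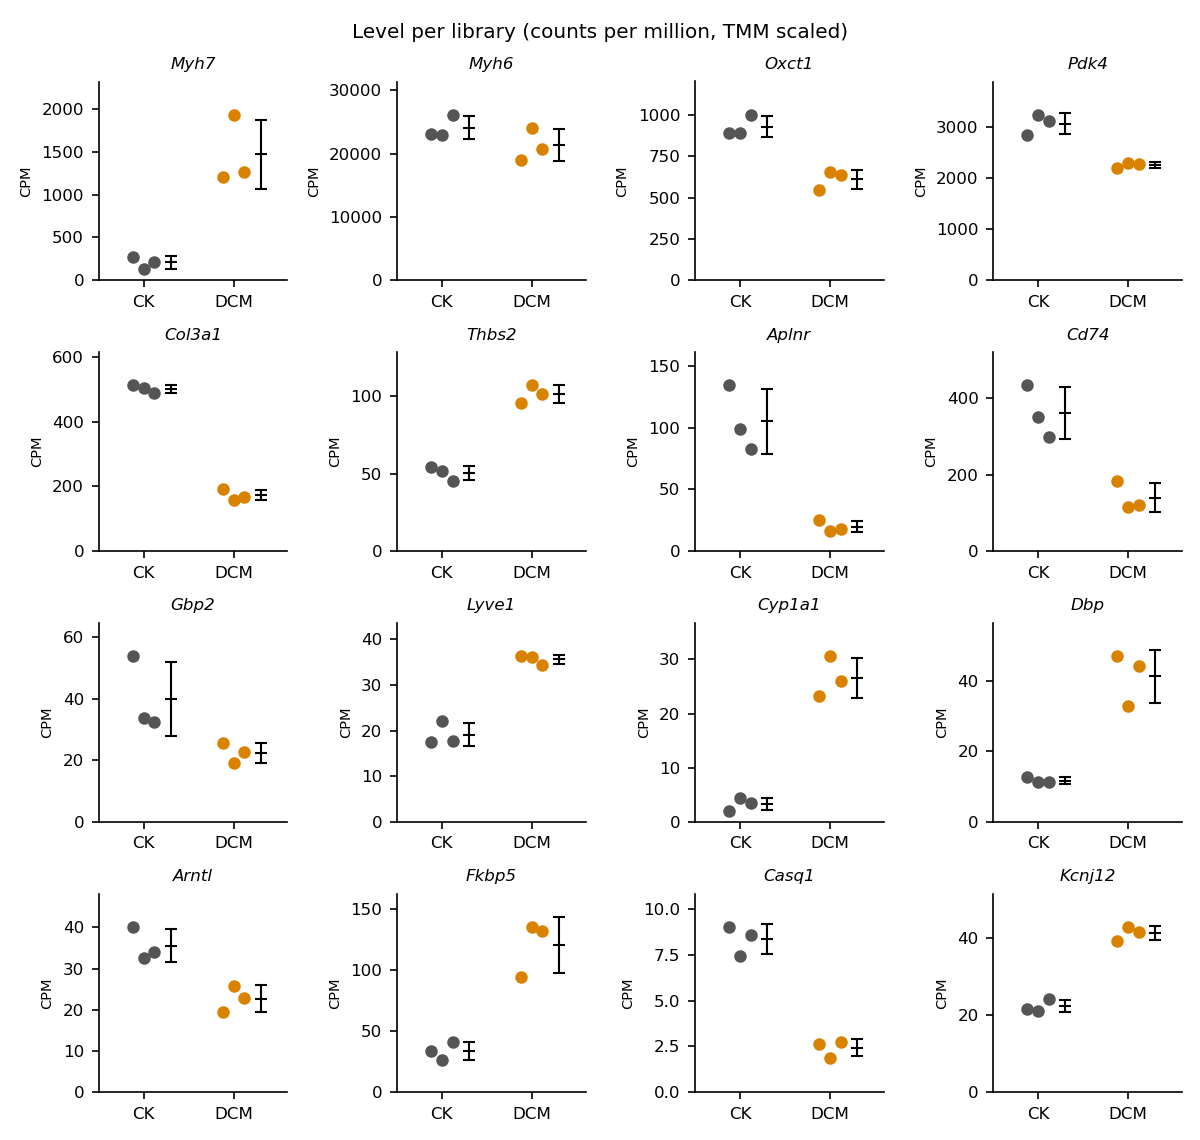
CPM of 16 genes in each library (points), with the mean and SD of the 3 libraries of a group beside them, on a separate axis for each gene. A reader should see separate groups for each gene but Myh6, the 3 DCM libraries lying above CK for Myh7, Cyp1a1 and Dbp and below CK for Oxct1, Col3a1, Aplnr and Cd74.

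Leukocyte and antigen presentation genes were lower in the diabetic heart. Of 10 genes of MHC class II presentation, 8 fell, none rose, and the median was -1.38. Cd74, the invariant chain that guides class II molecules, was at 434, 350 and 299 CPM in CK and 184, 115 and 120 CPM in DCM (log2 fold change -1.37 ± 0.17, adjusted p = 0.00033). The class II chains H2-Aa and H2-Ab1 were at 212, 175 and 158 CPM in CK and 90.7, 52.2 and 54 CPM in DCM (log2 fold change -1.46 ± 0.18, adjusted p = 0.00033) and at 241, 177 and 160 CPM in CK and 91.4, 58.9 and 53 CPM in DCM (log2 fold change -1.51 ± 0.19, adjusted p = 0.00034). H2-DMa, which helps load peptides, fell by 1.61. Of 21 pan-leukocyte genes, 11 fell and none rose, with a median of -0.69 and a sum of 288 to 415 CPM in CK and 178 to 263 CPM in DCM. Dock2, a guanine exchange factor of migrating leukocytes, was at 13.8, 12.4 and 11.8 CPM in CK and 7.08, 6.34 and 8.23 CPM in DCM (log2 fold change -0.81 ± 0.14, adjusted p = 0.0027). Lcp1, the leukocyte plastin, was at 59.3, 55.5 and 39.6 CPM in CK and 33.9, 26 and 32.7 CPM in DCM (log2 fold change -0.74 ± 0.14, adjusted p = 0.0058). The erythroid genes, which mark blood in the tissue, overlapped between groups in summed level. All 7 tested were lower in DCM on average, with a median of -0.30. How much blood each sample held was not tested. The number of pan-leukocyte calls was 11 with all libraries, 7 without CK replicate 1, 6 without CK replicate 2, 17 without CK replicate 3 and 5 without DCM replicate 2.

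Macrophage genes moved in both directions. Of 21, 9 fell and 2 rose, with a median of -0.42, and the calls numbered 11 with all libraries, 7 without CK replicate 2, 5 without DCM replicate 2 and 5 without DCM replicate 3. Adgre1, the F4/80 antigen, was at 34.8, 34.2 and 29 CPM in CK and 17.9, 15.4 and 18 CPM in DCM (log2 fold change -0.93 ± 0.10, adjusted p = 0.00015). Cx3cr1, the fractalkine receptor, was at 20.4, 13.1 and 8.87 CPM in CK and 4.23, 3.63 and 3.8 CPM in DCM (log2 fold change -1.86 ± 0.25, adjusted p = 0.00055). The opposite was seen for Lyve1 and Cd163, markers of perivascular resident macrophages. They were the only 2 members of the list to pass as higher, and 16 of the 21 were lower on average. Lyve1, which lymphatic endothelium also expresses, was at 17.4, 22 and 17.7 CPM in CK and 36.3, 36.1 and 34.3 CPM in DCM (log2 fold change 0.90 ± 0.10, adjusted p = 0.00017), and Cd163 was at 48.3, 50.1 and 45.1 CPM in CK and 63.4, 65.8 and 65.9 CPM in DCM (log2 fold change 0.44 ± 0.07, adjusted p = 0.0023). All 4 genes were separate between groups. Ccr2, the receptor of monocytes that enter from blood, was at 2.81, 3.68 and 2.2 CPM in CK and 3.11, 1.78 and 2.67 CPM in DCM (log2 fold change -0.20 ± 0.28, adjusted p = 0.73) and overlapped. Lymphocyte genes were at low levels throughout. Of 20 T and NK cell genes tested, 4 fell and none rose (median -1.01, 0 calls without CK replicate 2 or DCM replicate 2 or 3, and 1 call without CK replicate 1), and of 14 B and plasma cell genes 3 fell and none rose (median -1.43, 0 calls without DCM replicate 3, 1 call without CK replicate 2 or DCM replicate 2, and 5 calls without CK replicate 3). Ighm, the heavy chain of IgM, was at 48.1, 37.8 and 23.9 CPM in CK and 23.1, 14.4 and 14.6 CPM in DCM (log2 fold change -1.07 ± 0.23, adjusted p = 0.010), and the call was lost without DCM replicate 2 or 3 (adjusted p = 0.057 to 0.059). Of 18 neutrophil-associated genes measured, 9 had enough counts to be tested, of which 3 rose and none fell (5 calls without CK replicate 1). The summed level of the list was low and overlapped, at 13.6 to 36.6 CPM in CK and 26.3 to 46.7 CPM in DCM. S100a9, a calprotectin subunit, was at 2.97, 1.78 and 1.71 CPM in CK and 5.45, 4.32 and 11.7 CPM in DCM (log2 fold change 1.74 ± 0.35, adjusted p = 0.0082), and Lcn2, an iron-scavenging protein that other stressed cells also make, was at 3.75, 2.74 and 2.73 CPM in CK and 8.26, 7.23 and 7.99 CPM in DCM (log2 fold change 1.35 ± 0.18, adjusted p = 0.00053). Among 31 chemokines and receptors, 6 fell and 1 rose (4 calls without DCM replicate 3). Cxcl9, an interferon-induced T cell attractant, was at 17.5, 11.7 and 8.64 CPM in CK and 3.39, 3.57 and 4.63 CPM in DCM (log2 fold change -1.71 ± 0.23, adjusted p = 0.00065). Cxcl13, a B cell attractant, was at 0.71, 1.1 and 0.263 CPM in CK and 2.62, 2.61 and 2.91 CPM in DCM (log2 fold change 1.95 ± 0.41, adjusted p = 0.0096). Of 20 complement genes, 3 fell (1 call without DCM replicate 2 or 3, 5 calls without CK replicate 1 or DCM replicate 1, and 6 calls without CK replicate 3), among them C7 of the membrane attack complex (log2 fold change -0.81 ± 0.10, adjusted p = 0.00027).

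Interferon response genes were lower throughout. Of 38 tested (39 measured), all were lower in DCM on average and 23 fell at the adjusted p, against 5.11% of all genes. For 32 of them every DCM library was below every CK library, against 14.7% of all genes, and the median was -0.58. Summed levels were 803 to 1040 CPM in CK and 588 to 664 CPM in DCM. Irf9, the DNA-binding subunit of the interferon-activated factor ISGF3, was at 52.7, 44.5 and 43.4 CPM in CK and 29, 25.4 and 27.8 CPM in DCM (log2 fold change -0.77 ± 0.09, adjusted p = 0.00031). Parp14, an ADP-ribosyltransferase induced by interferon, was at 64.8, 58.8 and 59.9 CPM in CK and 38.3, 36.9 and 40.5 CPM in DCM (log2 fold change -0.66 ± 0.08, adjusted p = 0.00019). Gbp3, a guanylate-binding GTPase of cell-autonomous defence, was at 29, 20.02 and 16.4 CPM in CK and 11, 9.12 and 11.6 CPM in DCM (log2 fold change -1.04 ± 0.18, adjusted p = 0.0033). Oas1a, which senses double-stranded RNA, was at 11.8, 10.2 and 8.87 CPM in CK and 6.01, 6.07 and 6.06 CPM in DCM (log2 fold change -0.76 ± 0.14, adjusted p = 0.0052). In these genes CK replicate 1 was the highest library, and the DCM libraries lay close together below. Irf7, an amplifier of the response, was at 62.4, 45.1 and 38.8 CPM in CK and 44.3, 39 and 39.5 CPM in DCM (log2 fold change -0.25 ± 0.14, adjusted p = 0.30) and overlapped. The count of calls was 23 with all libraries, 15 without CK replicate 2, 9 without DCM replicate 2 and 14 without DCM replicate 3, and the median was -0.68 to -0.47 over all such omissions. Of 15 genes of MHC class I and its processing machinery, 4 fell and none rose (0 calls without CK replicate 1 or DCM replicate 2, 1 call without DCM replicate 1 or 3, and 7 calls without CK replicate 3). H2-K1, a class I heavy chain, was at 712, 456 and 478 CPM in CK and 437, 369 and 393 CPM in DCM (log2 fold change -0.46 ± 0.14, adjusted p = 0.062) and passed without CK replicate 2 or 3 (adjusted p = 0.040 and 0.035). Its reads cannot be told apart fully from those of its paralogs.

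Promoter windows of 3 of these genes are printed because they hold the letters of the element that ISGF3 binds. RefSeq promoter sequences (GRCm38.p6, 250 bases before the gene start) were searched on both strands for GAAANNGAAA, where N is any base. The motif was found in 936 of 27025 RefSeq genes (3.46%) and in 352 of 10665 genes tested (3.30%). It was found in 13 of the 27 interferon response genes tested that had a window (48.1%), and in 10 of the 16 past the adjusted p (62.5%). None of 28 collagen genes and 1 of 7 MHC class II genes held it in this window. The interferon list was made of genes known to respond to interferon. Its share therefore describes the list and not a change in DCM. The windows run 5′ to 3′ on the strand of the gene with the motif in capitals, at chr3:142559794-142560043 (plus strand), chr3:142620413-142620662 (plus strand) and chr5:120907526-120907775 (minus strand). Where GAAANNGAAA lies on the other strand it reads as TTTCNNTTTC. Gbp3 and Oas1a each hold 2 overlapping matches, at most 45 and 20 bases before the start, and Gbp2 holds 1 match at 59 bases. A match is a description of the letters and does not show binding in these hearts.
Gbp3: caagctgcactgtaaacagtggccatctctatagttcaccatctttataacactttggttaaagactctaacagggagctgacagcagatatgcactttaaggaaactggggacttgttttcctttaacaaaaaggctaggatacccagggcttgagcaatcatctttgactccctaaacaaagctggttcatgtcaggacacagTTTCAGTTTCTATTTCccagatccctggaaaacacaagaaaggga
Gbp2: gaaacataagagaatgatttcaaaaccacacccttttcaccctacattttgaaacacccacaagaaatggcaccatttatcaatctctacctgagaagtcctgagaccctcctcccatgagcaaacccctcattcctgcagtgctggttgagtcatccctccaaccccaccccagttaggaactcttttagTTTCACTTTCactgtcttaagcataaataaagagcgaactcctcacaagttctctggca
Oas1a: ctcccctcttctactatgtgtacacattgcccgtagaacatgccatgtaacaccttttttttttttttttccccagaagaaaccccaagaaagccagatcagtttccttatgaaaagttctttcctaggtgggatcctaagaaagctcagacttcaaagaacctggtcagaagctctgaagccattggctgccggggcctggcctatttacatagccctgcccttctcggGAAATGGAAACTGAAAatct

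Gbp2, whose window is the second, was at 53.9, 33.7 and 32.3 CPM in CK and 25.6, 19 and 22.7 CPM in DCM (log2 fold change -0.83 ± 0.17, adjusted p = 0.0096), and the call was lost without DCM replicate 2 (adjusted p = 0.053). It is a close relative of Gbp3 and neighbours it on the same chromosome, so reads could be shared between both.

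**Figure D5:**
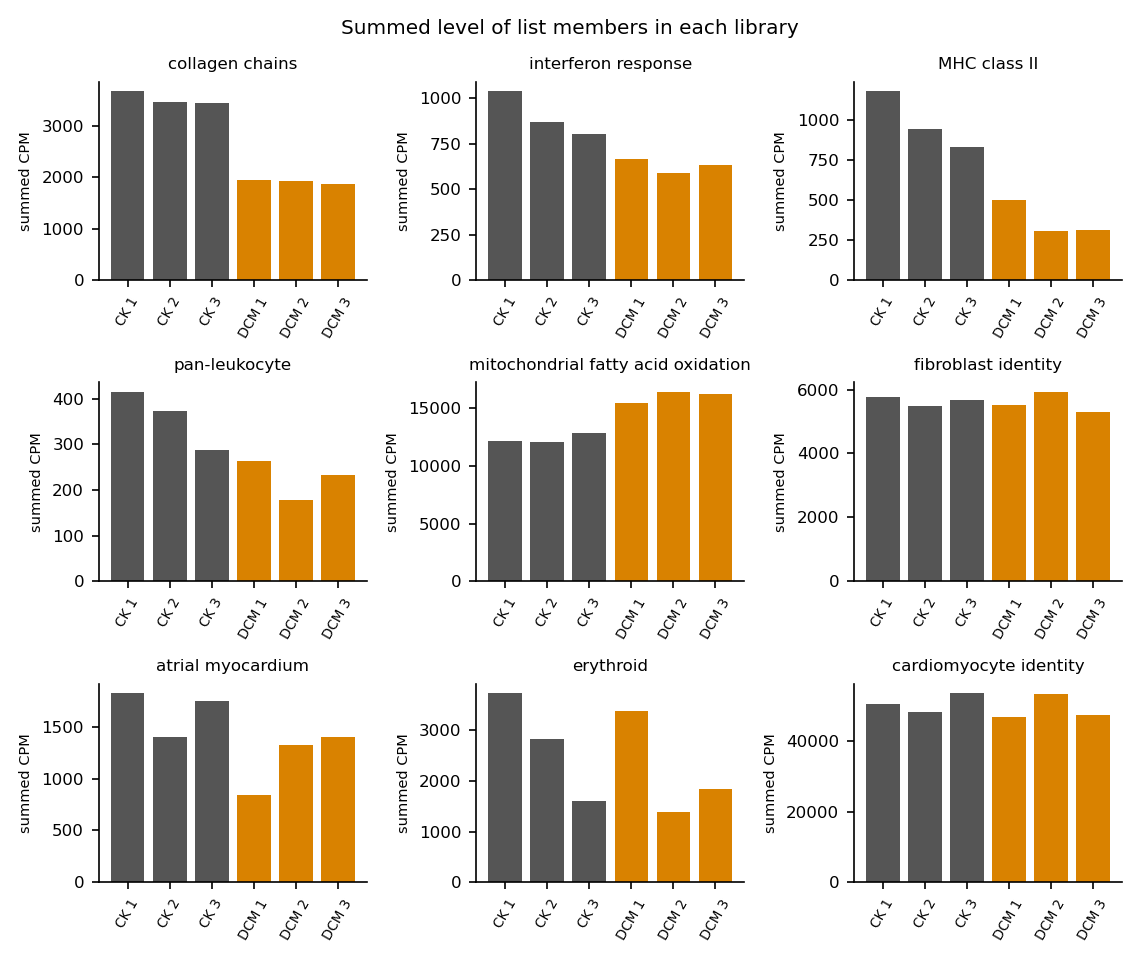
Summed CPM of the measured members of 9 gene lists (y axis, from 0, one panel per list) in each of the 6 libraries (bars; grey for CK, orange for DCM). A reader should see separate groups for collagen chains, MHC class II, interferon response and mitochondrial fatty acid oxidation, and overlapping groups for fibroblast identity, erythroid and cardiomyocyte identity genes.

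Beyond the 4 programs, genes under daily and hormonal control changed. The circadian clock is a loop in which BMAL1 (encoded by Arntl) and CLOCK drive the Per, Cry and Nr1d genes, whose products repress them in turn. Of 17 clock genes, 8 rose and 1 fell. Per2 was at 8.91, 5.49 and 7.19 CPM in CK and 25.1, 28.7 and 30.3 CPM in DCM (log2 fold change 1.97 ± 0.15, adjusted p = 1.3e-05). Dbp, a clock-controlled transcription factor, was at 12.8, 11.3 and 11.2 CPM in CK and 47.2, 32.8 and 44.3 CPM in DCM (log2 fold change 1.82 ± 0.13, adjusted p = 7.7e-06). Nr1d1, which encodes REV-ERB-alpha, was at 71.9, 69.1 and 62.4 CPM in CK and 121, 118 and 99.6 CPM in DCM (log2 fold change 0.74 ± 0.09, adjusted p = 0.00029). Arntl moved in the opposite direction, at 40.1, 32.5 and 34 CPM in CK and 19.4, 25.9 and 22.9 CPM in DCM (log2 fold change -0.65 ± 0.12, adjusted p = 0.0040). All 4 were separate between groups, and since the time of death is not given, a difference in time and a difference in diabetes cannot be told apart for them. Of 19 genes known to respond to glucocorticoids, 13 rose and 2 fell, with a median of 0.54. The limit of the unknown time of death holds for this list too, which shares Per1 with the clock list. Fkbp5, a cochaperone of the glucocorticoid receptor and a sensitive readout of it, was at 34.2, 26.4 and 40.9 CPM in CK and 94.2, 135 and 132 CPM in DCM (log2 fold change 1.84 ± 0.16, adjusted p = 2.5e-05). Zbtb16, a transcription factor strongly induced by the hormone, was at 68.9, 55.8 and 61.3 CPM in CK and 95.3, 150 and 177 CPM in DCM (log2 fold change 1.18 ± 0.17, adjusted p = 0.0010). The metal-binding protein gene Mt1 was at 142, 133 and 135 CPM in CK and 280, 279 and 225 CPM in DCM (log2 fold change 0.94 ± 0.09, adjusted p = 6.4e-05), and the cell cycle inhibitor Cdkn1a rose by 1.01 ± 0.13. Both falls on this list were Pdk4 and Angptl4, which also belong to fuel use.

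Of 8 genes of the pathway of the aryl hydrocarbon receptor, a sensor of planar aromatic compounds, 3 rose and none fell. Cyp1a1, the receptor's classical target, was at 2.0, 4.33 and 3.45 CPM in CK and 23.3, 30.6 and 26 CPM in DCM with no overlap (log2 fold change 3.02 ± 0.21, adjusted p = 6.0e-06). Cyp1b1 was at 16.2, 14.2 and 12.7 CPM in CK and 32.9, 28.7 and 30.8 CPM in DCM (log2 fold change 1.10 ± 0.11, adjusted p = 6.7e-05), and Nqo1, a quinone reductase, at 54.9, 46.7 and 52.3 CPM in CK and 85.7, 73.9 and 88.8 CPM in DCM (log2 fold change 0.69 ± 0.09, adjusted p = 0.00045). All 3 were separate between groups. The promoters of Cyp1a1 and Per1 are shown for short motifs. These are GCGTG, the core letters of the element that the aryl hydrocarbon receptor binds, and the E-box CACGTG of the clock. Only these letters were searched, without flanking bases. The match in Cyp1a1 is therefore not shown to be a site of the receptor, and binding was not tested. The windows lie at chr9:57697363-57697612 (plus strand) and chr11:69098699-69098948 (plus strand) in GRCm38.p6, again from RefSeq. The motif is in capitals, searched on both strands.
Cyp1a1: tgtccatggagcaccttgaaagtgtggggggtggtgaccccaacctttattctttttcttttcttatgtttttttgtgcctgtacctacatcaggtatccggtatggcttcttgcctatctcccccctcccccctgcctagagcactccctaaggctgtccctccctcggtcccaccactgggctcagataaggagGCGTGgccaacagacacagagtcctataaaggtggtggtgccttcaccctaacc
Per1: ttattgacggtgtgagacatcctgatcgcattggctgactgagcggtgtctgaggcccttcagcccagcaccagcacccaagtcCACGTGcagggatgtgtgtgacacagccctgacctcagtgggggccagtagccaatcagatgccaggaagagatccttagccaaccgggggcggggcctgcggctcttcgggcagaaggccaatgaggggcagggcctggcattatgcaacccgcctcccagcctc

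GCGTG is a common string, found in 48.1% of windows of genes tested and in 5 of 6 windows of the receptor list. CACGTG was found in 9.67% of windows of genes tested and in 4 of 14 windows of clock genes. Per1, which both the clock and glucocorticoids induce, was at 44.9, 71.3 and 99.6 CPM in CK and 135, 155 and 131 CPM in DCM (log2 fold change 0.97 ± 0.20, adjusted p = 0.0095), and the call was lost without DCM replicate 2 (adjusted p = 0.052).

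Among stress programs, 10 of 32 antioxidant genes rose and 1 fell (7 calls without DCM replicate 2). Of these, 1 rise and the 1 fall were DEGs. Log2 fold changes over the tested members ran from -2.24 to 0.69. Cat, the catalase of peroxisomes, was at 333, 328 and 343 CPM in CK and 422, 451 and 456 CPM in DCM (log2 fold change 0.40 ± 0.07, adjusted p = 0.0033). Hmox1, heme oxygenase, was at 22.2, 17.3 and 20.3 CPM in CK and 30.6, 26.9 and 27.9 CPM in DCM (log2 fold change 0.52 ± 0.10, adjusted p = 0.0081), and Sod1, the cytosolic superoxide dismutase, rose by 0.38 ± 0.07. Of 23 genes of the unfolded protein response and the chaperones of the endoplasmic reticulum, 5 fell and 1 rose. Calr, which folds secreted glycoproteins such as matrix components, was at 266, 270 and 273 CPM in CK and 211, 200 and 213 CPM in DCM (log2 fold change -0.37 ± 0.07, adjusted p = 0.0040). Herpud1, which helps degrade misfolded proteins, was at 192, 171 and 210 CPM in CK and 248, 321 and 267 CPM in DCM (log2 fold change 0.55 ± 0.10, adjusted p = 0.0055). The groups were separate for both. Of 21 autophagy and mitophagy genes, 6 rose and none fell (2 calls without CK replicate 2 or DCM replicate 2, and 3 calls without CK replicate 3). Bnip3, a mitophagy receptor induced by low oxygen and FoxO factors, was at 58.6, 63.6 and 63 CPM in CK and 97.2, 121 and 120 CPM in DCM (log2 fold change 0.87 ± 0.09, adjusted p = 0.00011). Odc1, the first enzyme of polyamine synthesis, was at 99.8, 102 and 102 CPM in CK and 142, 136 and 125 CPM in DCM (log2 fold change 0.41 ± 0.07, adjusted p = 0.0034), and it alone of 12 polyamine genes passed (2 calls without CK replicate 3).

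Some of the largest changes by fold were in genes outside the programs above. Rab3a, a GTPase of regulated secretion (chr8:70754679-70758677), was at 0.194, 0.113 and 0.0657 CPM in CK and 0.662, 1.58 and 3.33 CPM in DCM (log2 fold change 3.86 ± 0.67, adjusted p = 0.0035), so that the fold rests on very low CK levels. Without DCM replicate 3 the log2 fold change of Rab3a was 3.13 (adjusted p = 0.024). Dusp4, a phosphatase of mitogen-activated protein kinases (chr8:34807297-34819894), was at 6.94, 4.24 and 7.52 CPM in CK and 41.3, 45.4 and 45 CPM in DCM (log2 fold change 2.82 ± 0.16, adjusted p = 1.4e-06). Doc2b, a calcium sensor of vesicle fusion, was at 1.03, 0.594 and 0.525 CPM in CK and 2.29, 4.15 and 2.53 CPM in DCM (log2 fold change 2.05 ± 0.37, adjusted p = 0.0039). Tfcp2l1, an epithelial and stem cell transcription factor, was at 0.678, 0.905 and 1.08 CPM in CK and 3.85, 3.77 and 4.16 CPM in DCM (log2 fold change 2.14 ± 0.26, adjusted p = 0.00033). Every DCM library exceeded every CK library in each, which was a condition for naming a gene among the largest changes. Among the falls, Mmp13, a collagenase of the protease list, was at 2.23, 2.21 and 0.722 CPM in CK and 0.255, 0.0343 and 0.208 CPM in DCM (log2 fold change -3.29 ± 0.62, adjusted p = 0.0052), with the same caution about low levels in DCM. Arsi, a sulfatase, was at 4.84, 4.55 and 3.58 CPM in CK and 1.91, 0.549 and 0.505 CPM in DCM (log2 fold change -2.09 ± 0.42, adjusted p = 0.0076), and its log2 fold change was -3.02 (adjusted p = 0.00033) without DCM replicate 1.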

How the data were processed

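RNA from heart tissue was sequenced on an Illumina HiSeq from TruSeq libraries. The authors deposited a matrix of whole-number counts per gene and, per library, FPKM values, which equal count over gene length and total (largest relative deviation 6.7e-13). Reads were cleaned with fastp 0.18.0. The submitters' processing notes name Bowtie 0.12.2 and the builds mm8 and mm9 without a role, and the aligner, counting tool and annotation behind the counts are not stated in any source at hand. Gene names and coordinates came from GENCODE M21 (GRCm38), which named 22844 of 22851 genes. The 3 columns of the matrix for another treatment were not used.

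Counts were filtered with filterByExpr, scaled by TMM (factors 0.955 to 1.04) and tested with edgeR 4.0.16 in R 4.3.3 (quasi-likelihood test, Benjamini-Hochberg adjustment over all genes tested). Alternatives were DESeq2 1.42.0, which the study's methods name, RLE scaling, removal of mitochondrial genes, other count filters, fold limits and glmTreat at 1.2, a GC correction, a replicate block, limma 3.58.1 on FPKM and omission of each library. The fit was checked on simulated data with 14211 genes tested. At the adjusted p it recovered 56.5% of 62 genes changed 1.5-fold, 91.5% of 71 changed 2-fold and 100% of 67 changed 4-fold. It also called 21 unchanged genes. A gene that did not pass can therefore still have changed by 1.5-fold, and a gene that passed can be unchanged. Fewer genes were changed in the simulation than the 1497 that passed in the data, so its rates need not hold for the data. Libraries of one group differed beyond counting noise, so none was counted as a duplicate. Exact permutation tests used scipy 1.17.1 in Python 3.11.15. Intervals of shares from counting error alone would be far narrower than the spread between libraries.

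Some genes that the naming rule took are not reported here. Members and gene lists were chosen with earlier results of these data known. The naming rule took the 12 largest rises and falls among DEGs with separate groups and at least 1 CPM in the higher group, and, in each list, the 3 most abundant members and the 4 largest changes past the adjusted p, with a set of fixed genes. Named from outside this rule, after their values were seen, were Acadl, Acadvl, Acot1, Adcy5, Adipoq, Apln, Cacna1g, Cacna1h, Cat, Cd163, Cdkn1a, Col13a1, Col1a2, Col23a1, Fam107a, Hif3a, Inmt, Irf9, Loxl1, Loxl2, Mlycd, Nrep, Oas1a, Slc25a20, Sod1, Spock2 and Srl.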

Additional observations from a re-analysis of the deposited data

How the results depend on the processing

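The limma test on log2 FPKM plus 1 called 408 DEGs, and a fold limit of 1.3 in place of 1.5 called 1100, against 625. With DESeq2 there were 693 DEGs, and with no filter on low counts 857. Leaving out 1 library at a time gave 427 to 704 DEGs, and 817 to 1326 genes past the adjusted p against 1497. List medians moved by more than the spread between libraries under several alternatives. With limma on FPKM, at a pseudocount of 0.1 and of 1, they were 0.27 and 0.27 for mitochondrial fatty acid oxidation, -0.048 and -0.048 for the nuclear respiratory chain, 0.027 and 0.027 for the sarcomere, -0.20 and -0.18 for calcium handling, -0.42 and -0.41 for fibroblast identity, and 0.21 and 0.19 for the clock. For collagen chains the value was -0.41 at a pseudocount of 1. All genes together had a median of -0.09 and -0.07 on these scales. Omitting single libraries gave medians of 0.032 to 0.11 for the nuclear respiratory chain, 0.049 to 0.16 for the sarcomere, -0.15 to -0.06 for calcium handling, -0.66 to -0.56 for collagen chains and 0.28 to 0.39 for the clock. The median of the nuclear respiratory chain was below 0 with limma on FPKM and above 0 otherwise. No gene named here that passed the adjusted p changed direction under any alternative. Alb, Adipoq, Cd36, Col23a1, H2-K1, Klf9 and Slc2a4 crossed the threshold under an alternative that left out no library.

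Replicate numbers did not pair the libraries, since the deviations of same-numbered libraries from their group means correlated at -0.0249, -0.1 and -0.0149. With the replicate number as a block there were 568 DEGs and 1302 genes past the adjusted p, and of the genes named H2-K1 alone changed its call (adjusted p = 0.026).

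The common biological coefficient of variation was 0.122. Lymphocyte genes had low counts, and neither lymphocyte list had a call left without DCM replicate 3. The source of a library, 1 mouse or a pool, was described in different ways and the time of death was not stated. No outlier test was made in groups of 3.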

Other observations

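Several genes outside the lists and the naming rule were chosen after their values were seen and are given as values. Spock2, a testican of the extracellular matrix, was at 29.7, 29.5 and 40.6 CPM in CK and 121, 155 and 118 CPM in DCM (log2 fold change 1.98 ± 0.13, adjusted p = 4.8e-06). Fam107a, an actin-associated protein that glucocorticoids induce in other tissues, was at 11, 7.89 and 10.7 CPM in CK and 28, 39.7 and 36.7 CPM in DCM (log2 fold change 1.82 ± 0.15, adjusted p = 1.9e-05), and Hif3a, a negative regulator of hypoxia signalling, was at 2.81, 1.84 and 3.45 CPM in CK and 9.25, 9.12 and 11.3 CPM in DCM (log2 fold change 1.88 ± 0.21, adjusted p = 0.00019). Inmt, a methyltransferase, was at 26, 27.4 and 32.8 CPM in CK and 91.5, 93 and 83.5 CPM in DCM (log2 fold change 1.64 ± 0.09, adjusted p = 1.4e-06). Acot1, a cytosolic thioesterase that PPAR-alpha induces, was at 82.9, 87.9 and 102 CPM in CK and 199, 219 and 188 CPM in DCM (log2 fold change 1.15 ± 0.09, adjusted p = 1.3e-05). Nrep, a small protein expressed in wound fibroblasts, was at 38.6, 38.4 and 33.1 CPM in CK and 12.4, 9.15 and 11 CPM in DCM (log2 fold change -1.75 ± 0.12, adjusted p = 4.7e-06). In all 6 the groups were separate, which adds no support because the genes were chosen with these values in view.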
